A study of Mus musculus with 2 samples.

Results

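The cells described here are adrenal cortex cells of the mouse in which the transcripts of both final-step steroid enzymes, Cyp11b2 and Cyp11b1, were counted in 1 barcode. They were chosen among 6904 barcodes with 1000 or more UMIs (unique molecular identifiers, 1 per captured transcript molecule) from 500 or more genes, no more than 30% of them mitochondrial. A cell counted as co-expressing with Cyp11b2 at 100 CPM or more (UMIs of the gene per 1000000 UMIs of the cell) and at least 2 UMIs, together with Cyp11b1 at 200 CPM or more. It also needed Malat1, a nuclear RNA, at 2000 CPM or more, Nr4a1 and Nr4a2 together under 600 CPM and Aldh1a1 under 500 CPM. The rule found 148 co-expressing cells, 113 in library 1 and 35 in library 2. They were set against 950 Cyp11b2-only cells (679 and 271) and 1278 Cyp11b1-only cells (837 and 441), which met the same conditions but passed 1 of the 2 enzyme cutoffs.

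All cells came from adrenals of 15 week old male mice with the SF1-Cre transgene and a Rosa mTmG reporter, where Cre exchanges a red for a green membrane protein. Cre was driven by SF1, the steroidogenic lineage factor encoded by Nr5a1, and the animals were otherwise labelled wild type. Live cells (DAPI-negative) that took up a DNA dye (Vybrant DyeCycle Ruby) were sorted and made into 2 droplet libraries with a 3′ kit. Both libraries belong to 1 group, 26 adrenals were pooled, and how they were divided over the libraries was not stated. The fit took out the difference between the libraries themselves. Its p-values thus measure only how far the class differences varied between these libraries, a spread that may be technical. The 3 classes were compared within each library.

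Aldosterone synthase, the product of Cyp11b2, makes aldosterone in the zona glomerulosa, the outer layer under the capsule, which responds to angiotensin II and potassium. Steroid 11β-hydroxylase, the product of Cyp11b1, makes corticosterone in the zona fasciculata beneath it, which responds to ACTH through cAMP. In the mouse the enzymes normally mark different layers, and cells of the outer layer can become cells of the inner one.

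The 2 genes are near-copies of each other, and the counts of a 3′ kit depend on how well their ends can be told apart. On build mm10 with the GENCODE vM21 annotation, Cyp11b2 lies at chr15:74851010-74856318 and Cyp11b1 at chr15:74834125-74841643, both protein-coding genes on the minus strand, with 9366 bases between them. Their transcripts have 9 exons each, and the coding sequences (1506 and 1503 bases) were identical at 86.92% of aligned positions. The last coding exons are shown because they are where the ends of the coding sequences can be compared. Each is 111 bases long, at chr15:74851042-74851152 for Cyp11b2 and chr15:74835756-74835866 for Cyp11b1, written 5′ to 3′ along the transcript with the 15 bases that differ in capitals.
Cyp11b2: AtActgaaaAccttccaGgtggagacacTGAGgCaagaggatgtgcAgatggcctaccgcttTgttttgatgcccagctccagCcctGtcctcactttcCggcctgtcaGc
Cyp11b1: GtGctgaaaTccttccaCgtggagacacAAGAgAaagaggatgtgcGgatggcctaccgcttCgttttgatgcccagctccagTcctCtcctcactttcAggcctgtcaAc
Of all stretches of 50 bases in the Cyp11b2 transcript, 301 of 1576 (19.1%) also occur in Cyp11b1, the longest identical run being 244 bases. Within the last 500 bases, 86 of 451 stretches of Cyp11b2 were shared, and 0 of Cyp11b1, whose transcript goes on for 1628 bases after the stop codon. The annotated Cyp11b2 transcript goes on for 29. RefSeq, another annotation, lets Cyp11b2 run on past this GENCODE end. The 86 of 451 shared stretches therefore hold for the GENCODE end only, and the RefSeq end was not tested. Whether reads of 1 gene were counted for the other was not tested.

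The enzyme levels that chose the cells are given as a description, without a test. Summed over the cells of a class and scaled between sums, Cyp11b2 stood at 222 and 209 normalised CPM in the co-expressing cells of libraries 1 and 2, at 272 and 293 in Cyp11b2-only cells and at 13.7 and 3.62 in Cyp11b1-only cells. Cyp11b1 stood at 684 and 763 normalised CPM in co-expressing cells, at 20.6 and 16.8 in Cyp11b2-only cells, and at 1096 and 1727 in Cyp11b1-only cells. Co-expressing cells thus held most of the Cyp11b2 level of Cyp11b2-only cells and part of the Cyp11b1 level of Cyp11b1-only cells. Per cell the medians were 4 and 3 UMIs of Cyp11b2 and 12 and 10 UMIs of Cyp11b1. Exactly 2 Cyp11b2 UMIs, the fewest the rule allows, were found in 17 and 8 of the co-expressing cells. In 6 and 3 cells Cyp11b2 had more UMIs than Cyp11b1, and in 23 and 7 cells Cyp11b1 reached 1000 CPM. Of the other rule genes, Malat1 stood at 24537 and 25410 CPM in co-expressing cells, at 25035 and 26346 in Cyp11b2-only cells, and at 31511 and 37066 in Cyp11b1-only cells. Nr4a1, an early response gene, stood at 45.02 and 148 CPM in co-expressing cells, at 55.5 and 125 in Cyp11b2-only cells, and at 40.3 and 49.9 in Cyp11b1-only cells. Most Cyp11b1-only cells (687 of 837 and 416 of 441) had no Cyp11b2 UMI, and most Cyp11b2-only cells (505 of 679 and 205 of 271) had no Cyp11b1 UMI.

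**Figure D1:**
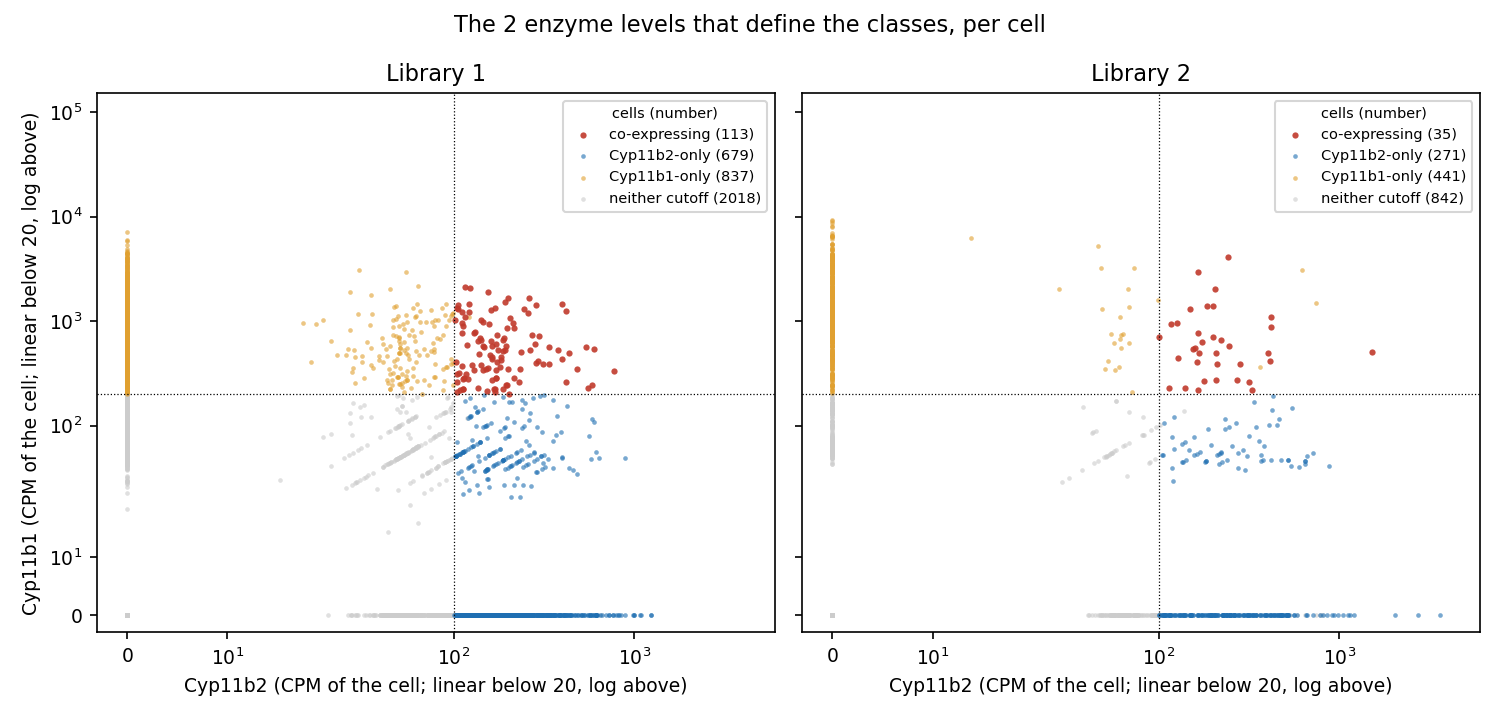
Cyp11b2 (x) and Cyp11b1 (y) in CPM of each cell, 1 point per cell and 1 panel per library, with the cutoffs of 100 and 200 CPM as dotted lines; axes are linear below 20 and logarithmic above. The 113 and 35 co-expressing cells fill the upper right corner and continue past the cutoffs without a gap, next to Cyp11b2-only cells at the lower right and Cyp11b1-only cells at the upper left.

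There was no gap at either cutoff. Among cells past the Cyp11b2 cutoff, 15 cells of library 1 had Cyp11b1 between 200 and 250 CPM and 15 had it between 150 and 200 CPM. In library 2 these were 4 and 2 cells. Among cells past the Cyp11b1 cutoff, 43 and 7 had Cyp11b2 between 100 and 150 CPM, while 83 and 17 lay between 50 and 100 CPM. The conditions on other genes left out 26 cells of library 1 and 19 of library 2 that had passed both enzyme cutoffs, 22 and 2 of them for Malat1 and 4 and 17 for Nr4a1 and Nr4a2. No cell was left out for Aldh1a1.

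Co-expressing cells made up 2.31% of kept cells in library 1 (95% Clopper-Pearson interval 1.91 to 2.77) and 1.74% in library 2 (1.21 to 2.41). These intervals cover counting error only. Among cells that met the other conditions and passed the Cyp11b2 cutoff, 14.3% (113 of 792) and 11.4% (35 of 306) also passed the Cyp11b1 cutoff. Among those below the Cyp11b2 cutoff, leukocytes left out, 29.2% (834 of 2852) and 34.3% (439 of 1281) passed the Cyp11b1 cutoff. The share beside Cyp11b2 was the lower of the 2 in both libraries, which is given without a test because the rule used both genes. At 20000 to 30000 UMIs per cell the shares were 11.3% against 29.1% in library 1 and 9.35% against 45.5% in library 2, and at 15000 to 20000 UMIs 15.0% against 27.2% and 12.2% against 32.3%. Above 30000 UMIs library 1 had 29.4% against 40.1%, with intervals that overlap (20.02 to 40.3 and 34.1 to 46.2). At 10000 to 15000 UMIs the shares were 10.0% against 30.8% and 18.4% against 31.2%. The intervals overlap there in library 2 (7.74 to 34.3 and 26.8 to 35.9). Below 10000 UMIs 0 of 10 and 1 of 19 Cyp11b2-passing cells also passed the Cyp11b1 cutoff, too few to compare.

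Leukocytes, which should hold neither enzyme, were used to gauge free RNA in the droplets. They had to have Star, a steroid synthesis gene, under 1000 CPM. Droplets with much cortical RNA could therefore not enter, and the leukocyte shares may run low. Of 87 and 73 leukocytes, whose median depth was 5005 and 4205 UMIs, 4 and 3 (4.60% and 4.11%) had a Cyp11b1 UMI. Of these, 3 and 2 (3.45%, interval 0.717 to 9.75, and 2.74%, 0.334 to 9.55) passed the Cyp11b1 cutoff, which 1 UMI reaches in a cell of 5000 UMIs. No leukocyte had a Cyp11b2 UMI, with upper limits of 4.15% and 4.93%. The share of Cyp11b2-passing cells that also passed the Cyp11b1 cutoff lay above the leukocyte share in both libraries, with intervals of 11.9 to 16.9% and 8.10 to 15.5%. In library 2 that interval overlaps the leukocyte one. Depth differs between them, as co-expressing cells had medians of 21909 and 18178 UMIs.

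The deposited libraries held 5040 and 2288 barcodes with 92905273 and 28023733 UMIs, so values of library 1 rest on more molecules. The co-expressing sums held 2891037 and 627931 UMIs, those of Cyp11b2-only cells 15298450 and 4957622, and those of Cyp11b1-only cells 17087632 and 6428330. The smaller co-expressing sums limit what their comparisons can detect. The libraries shared 4 barcodes, none of a co-expressing cell.

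Median depth per cell was 21909 and 18178 UMIs in co-expressing cells, 21034 and 18879 in Cyp11b2-only cells, and 18595 and 15128 in Cyp11b1-only cells. Upper quartiles were 28671 and 20042, 24934.5 and 21176, and 22422 and 18729 UMIs. Of library 1 cells that met the other conditions, 0.780% were co-expressing at 10000 to 15000 UMIs and 2.82% at 15000 to 20000. At 20000 to 30000 UMIs the share was 3.77%, and above 30000 it was 7.10%. In library 2 these shares were 1.54%, 2.80%, 3.83% and 0 of 15 cells. After thinning each cell to 5000 UMIs, the median number of genes detected was 2254 and 2438 in co-expressing cells, 2214 and 2396 in Cyp11b2-only cells, and 2260 and 2461 in Cyp11b1-only cells. Doublet scores were higher in co-expressing cells. The median scrublet score was 0.0877 and 0.100 in co-expressing cells, 0.0633 and 0.0788 in Cyp11b2-only cells, and 0.0691 and 0.0636 in Cyp11b1-only cells. At a doublet rate of 0.8% per 1000 barcodes, 9 of 113 (7.96%) and 5 of 35 (14.3%) co-expressing cells were marked as likely doublets, against 3.24% and 1.48% of Cyp11b2-only and 6.45% and 2.95% of Cyp11b1-only cells. The barcodes marked were kept in the main comparisons, and values without them are given beside the results. A droplet with a Cyp11b2 cell and a Cyp11b1 cell would pass the rule, and how many of the 148 are such droplets was not tested.

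**Figure D2:**
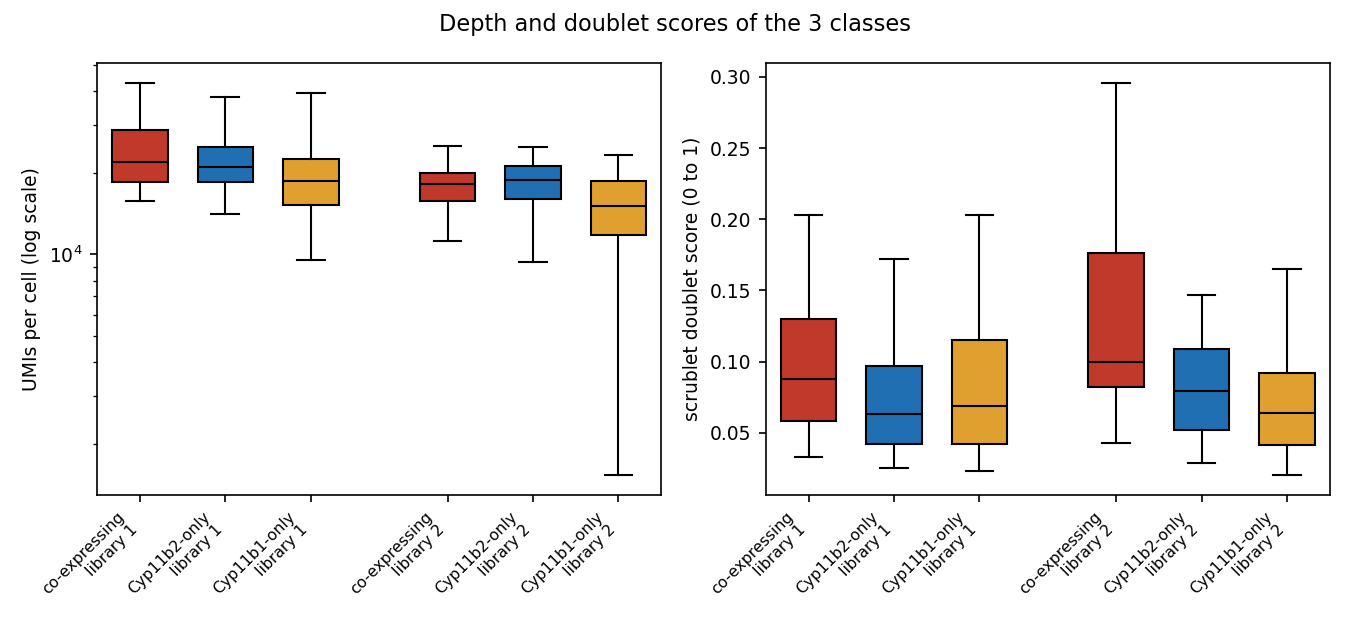
UMIs per cell (left, log scale) and scrublet doublet score (right) of the 3 classes in each library; boxes span the quartiles with the median as a line, and whiskers the 5th to 95th percentile. Co-expressing cells have the highest median score of the 3 classes in each library (0.0877 and 0.100). Their depth overlaps that of the others, with the highest upper quartile in library 1 (28671 UMIs) but not in library 2 (20042 UMIs).

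By their other genes, the co-expressing cells had more Cyp11b2-only and fewer Cyp11b1-only neighbours than those classes' shares of the cells. With the 6 genes of the rule left out, each cell's 15 nearest neighbours in its library were looked up in 30 principal components. Of the neighbours of co-expressing cells, 27.7% and 32.8% were Cyp11b2-only cells, which made up 13.9% and 13.5% of all kept cells. Cyp11b1-only cells gave 16.05% and 9.71% of their neighbours and made up 17.1% and 21.9% of all kept cells. Another 8.85% and 4.38% were other co-expressing cells, which made up 2.31% and 1.74%. The most common neighbours, 39.6% and 36.0%, were cells passing neither enzyme cutoff, which made up 41.3% and 41.8%. Cells left out by the conditions on other genes gave 7.79% and 17.1% of the neighbours and made up 23.96% and 17.7% of all kept cells. With these and the leukocytes taken out of both shares, Cyp11b2-only cells gave 30.01% and 39.5% of the neighbours against 18.6% and 17.1% of the cells, and Cyp11b1-only cells 17.4% and 11.7% against 22.95% and 27.8%. Around Cyp11b2-only cells, Cyp11b1-only neighbours were rarer still (7.73% and 3.94%). Around Cyp11b1-only cells, 39.2% and 54.2% of the neighbours were of their own class. These shares carry no test.

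For gene by gene comparisons, UMIs were summed per class and library and fitted with edgeR's quasi-likelihood test, with the library as a block. A gene was called at a Benjamini-Hochberg adjusted p under 0.05 over 11457 genes, the 6 rule genes left out. Fold changes below are log2 values ± SE from this fit, n = 2 libraries per class, with normalised CPM of the class sums in library 1 and library 2 given before them. The fit had 2 residual degrees of freedom, supported by 13.1 prior ones. The 2 comparisons of co-expressing cells share the co-expressing sums, so they are not independent of each other.

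Co-expressing and Cyp11b2-only cells differed in few genes. Higher in co-expressing cells were Adh1, Prss35 and Anxa5, and lower were Stmn1, Ly6k, Dkk3, Col18a1, Mki67, mt-Cytb and mt-Nd4l. These 10 genes are 0.0873% of those tested, with 3 higher (0.0262%) and 7 lower (0.0611%), all of the same sign in both libraries. At an unadjusted p under 0.05 there were 809 genes, and the median SE was 0.178, so differences well under 2-fold in most genes were not detectable at this depth. All 10 calls rest on the library block, since a fit without it called 0 genes (182 at an unadjusted p under 0.05). The log2 differences without the block were near those with it, at 1.26 against 1.15 for Adh1, −1.85 against −1.57 for Ly6k and −0.92 against −0.86 for Col18a1. With the cells in the top 20% of doublet scores left out, an alternative chosen after seeing the data, edgeR also called 0 genes (656 unadjusted), with 80 and 18 co-expressing cells left. There Adh1 was at 0.60 against 1.15 and mt-Cytb at −0.29 against −0.40, while Prss35 was at 0.82 against 0.88, Anxa5 at 0.54 against 0.52, Ly6k at −1.76 against −1.57 and Dkk3 at −1.18 against −1.06. With the Cyp11b1 cutoff at 400 CPM, 4 genes were higher and 5 lower, among them all 3 of the higher and 1 of the 7 lower genes (mt-Cytb). In cells thinned to 5000 UMIs Adh1, Col18a1 and mt-Cytb of the 10 passed, among 1 higher and 10 lower genes called. Anxa5 (adjusted p = 0.0588), Dkk3 (0.19) and mt-Nd4l (0.12) did not pass in DESeq2, and Anxa5 (0.0519), mt-Cytb (0.0586) and mt-Nd4l (0.0893) did not pass without likely doublets.

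Adh1 (chr3:138260991-138290698, plus strand), a class I alcohol dehydrogenase, was at 86.0 and 87.7 CPM in co-expressing cells, at 45.4 and 26.1 in Cyp11b2-only cells, and at 153.7 and 144.7 in Cyp11b1-only cells. Each library placed the co-expressing cells between the other classes. The difference from Cyp11b2-only cells was 1.15 ± 0.17 (adjusted p = 0.00953), and 0.60 (adjusted p = 0.759) without the top 20% of doublet scores.

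Prss35 (chr9:86743649-86758443, plus strand), which encodes a serine protease family protein, was at 79.3 and 133 CPM in co-expressing cells, at 47.7 and 60.0 in Cyp11b2-only cells, and at 217 and 305 in Cyp11b1-only cells. Anxa5 (chr3:36448923-36475894, minus strand), the calcium-dependent phospholipid binder annexin A5, was at 211 and 189 CPM in co-expressing cells, at 153 and 127 in Cyp11b2-only cells, and at 416 and 430 in Cyp11b1-only cells. Both genes again lay between the single-enzyme classes in each library. The differences from Cyp11b2-only cells were 0.88 ± 0.11 for Prss35 (adjusted p = 0.00877) and 0.52 ± 0.09 for Anxa5 (adjusted p = 0.0387).

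Col18a1 (chr10:77052178-77166548, minus strand), the chain of the basement membrane collagen XVIII, was at 71.6 and 81.6 CPM in co-expressing cells, at 120 and 168 in Cyp11b2-only cells, and at 31.2 and 32.6 in Cyp11b1-only cells. Dkk3 (chr7:112116017-112159057, minus strand), a secreted protein of the Dickkopf family, was at 21.0 and 18.1 CPM in co-expressing cells, at 45.1 and 34.9 in Cyp11b2-only cells, and at 13.1 and 11.2 in Cyp11b1-only cells. Both were intermediate in each library, here below the Cyp11b2-only level. Their differences from Cyp11b2-only cells were −0.86 ± 0.12 (adjusted p = 0.00953) and −1.06 ± 0.17 (adjusted p = 0.0193), and those from Cyp11b1-only cells 1.26 ± 0.14 (adjusted p = 3.11e-05) and 0.67 ± 0.19 (adjusted p = 0.0426).

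Stmn1, Ly6k and Mki67 were the genes lower in co-expressing cells than in both other classes, and no gene was called higher than in both. Stmn1 (chr4:134468320-134473843, plus strand), which encodes the microtubule destabiliser stathmin, was at 14.4 and 6.05 CPM in co-expressing cells, at 36.4 and 39.5 in Cyp11b2-only cells, and at 42.6 and 36.1 in Cyp11b1-only cells. Ly6k (chr15:74796874-74799986, minus strand), a GPI-anchored surface protein gene, was at 27.3 and 19.6 CPM in co-expressing cells, at 60.5 and 120 in Cyp11b2-only cells, and at 64.9 and 81.1 in Cyp11b1-only cells. The co-expressing values of both genes were the lowest in each library. Stmn1 differed by −1.59 ± 0.23 (adjusted p = 0.00953) from Cyp11b2-only and by −1.68 ± 0.22 (adjusted p = 1.93e-04) from Cyp11b1-only cells. Among cells of 10000 to 30000 UMIs the first of these was −0.74 (adjusted p = 0.828). Ly6k differed by −1.57 ± 0.23 (adjusted p = 0.00953) and −1.37 ± 0.23 (adjusted p = 0.00144). Against Cyp11b2-only cells the calls of Stmn1, Ly6k and Mki67 were lost under both stricter enzyme cutoffs. With Cyp11b1 at 400 CPM or more, Stmn1 was at −1.25 (adjusted p = 0.085) and Ly6k at −0.85 (adjusted p = 0.184), and Mki67 had an adjusted p of 0.13. With Cyp11b2 at 200 CPM or more, Stmn1 was at −2.36 (adjusted p = 0.0578) and Ly6k at −1.21 (adjusted p = 0.392), and Mki67 had an adjusted p of 0.424.

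Mki67 (chr7:135689784-135716361, minus strand), the proliferation marker Ki-67, had no UMI in co-expressing cells of either library. It was at 7.76 and 15.2 CPM in Cyp11b2-only cells and at 5.89 and 11.7 in Cyp11b1-only cells. A floor of 3 UMIs over the group would lie 10.8-fold under the Cyp11b2-only and 9.03-fold under the Cyp11b1-only level. These folds treat UMIs as independent. Few cells carried the G2 and M phase signal (below), so they do not bound the level in cells of this kind. Of 16 tested genes of a list of G2 and M phase genes, Mki67 passed as lower than in Cyp11b2-only cells (14 genes at an unadjusted p under 0.05), and Mki67, Top2a, Birc5 and Tpx2 as lower than in Cyp11b1-only cells (12 unadjusted). Of the 20 genes of the list, 12 and 6 had a UMI in co-expressing cells and all 20 had one in each of the other classes. The list summed to 17.99 and 15.9 CPM of the class sum (52 and 10 UMIs) in co-expressing cells, 62.6 and 188 in Cyp11b2-only cells, and 82.7 and 100 in Cyp11b1-only cells.

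Few cells of any class carried this signal. At least 3 genes of the G2 and M phase list were detected in 1 of 113 (0.885%, interval 0.0224 to 4.83) and 0 of 35 (up to 10.0%) co-expressing cells, in 9 of 679 (1.33%) and 5 of 271 (1.85%) Cyp11b2-only cells, and in 18 of 837 (2.15%) and 9 of 441 (2.04%) Cyp11b1-only cells. The intervals of co-expressing cells include the shares of both other classes. After thinning to 5000 UMIs the counts were 0 of 113 and 0 of 34 co-expressing cells, 2 of 678 and 1 of 261 Cyp11b2-only cells, and 3 of 825 and 5 of 380 Cyp11b1-only cells. The S phase list summed to 281 and 363 CPM in co-expressing cells, 276 and 314 in Cyp11b2-only cells, and 319 and 404 in Cyp11b1-only cells. Of its 17 tested genes, 0 passed against Cyp11b2-only cells (1 at an unadjusted p under 0.05), and Rrm2 and Uhrf1 were lower than in Cyp11b1-only cells.

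Against Cyp11b1-only cells, 991 genes (8.65%) were called, 595 higher (5.19%) and 396 lower (3.46%), and 247 of them by at least 2-fold. These shares over all genes tested are the ones to set beside each list count against Cyp11b1-only cells. Among the lists, 15 of 26 cholesterol synthesis genes and 12 of 13 mitochondrial-encoded genes were higher in co-expressing cells and 0 lower, and 6 of 21 interferon and antigen presentation genes were lower and 0 higher. Between Cyp11b2-only and Cyp11b1-only cells the same fit called 2859 genes (25.0%). The median SE was 0.176 for co-expressing against Cyp11b1-only cells and 0.114 between the single-enzyme classes, whose sums are larger, so the counts are not comparable as sizes of effect. The fit without the library block called 0 genes for co-expressing against Cyp11b1-only cells (936 unadjusted) and 86 higher and 106 lower for Cyp11b2-only against Cyp11b1-only cells. DESeq2 with the block called 327 higher and 141 lower, of which 326 and 139 were also called by edgeR.

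**Figure D3:**
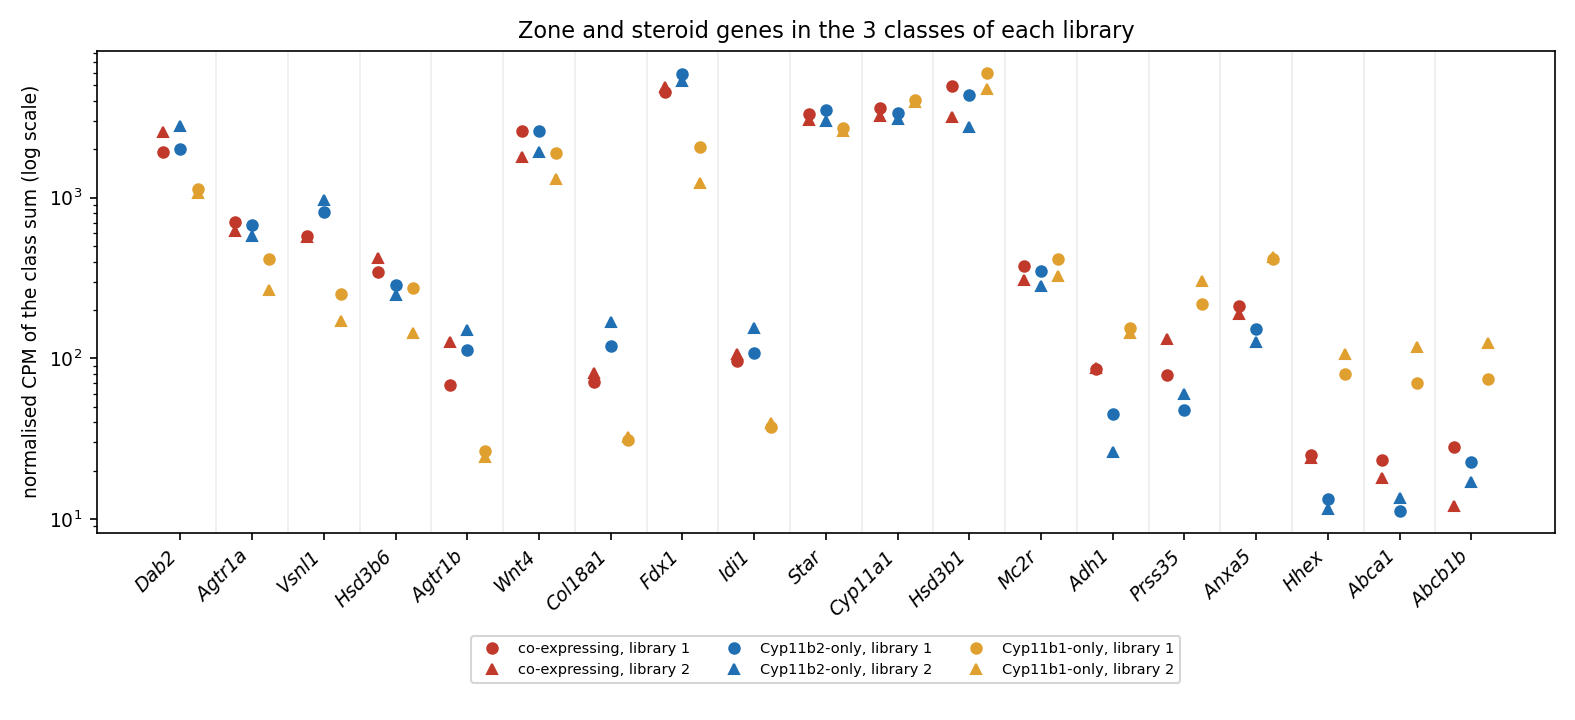
Normalised CPM (log scale) of 19 zone and steroid genes in co-expressing (red), Cyp11b2-only (blue) and Cyp11b1-only (yellow) sums, with circles for library 1 and triangles for library 2. Dab2 and Agtr1a of co-expressing cells lie near the Cyp11b2-only values in both libraries, while Fdx1, Vsnl1, Col18a1, Adh1 and Anxa5 lie between the single-enzyme classes.

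The zona glomerulosa list had 12 of 22 tested genes higher and 1 lower in co-expressing than in Cyp11b1-only cells, with a median of 0.41. Against Cyp11b2-only cells 0 of the 22 passed (6 at an unadjusted p under 0.05), with a median of −0.06. The median over all genes tested lay within 0.01 of 0 in both comparisons. The list's genes were chosen with earlier results of these data known.

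Of the receptors for angiotensin II, Agtr1a was at 709 and 624 CPM in co-expressing cells, at 678 and 575 in Cyp11b2-only cells, and at 418 and 265 in Cyp11b1-only cells. Agtr1b was at 68.3 and 127 CPM in co-expressing cells, at 113 and 151 in Cyp11b2-only cells, and at 26.5 and 24.4 in Cyp11b1-only cells. Both receptors were higher than in Cyp11b1-only cells in each library, Agtr1a by 0.96 ± 0.09 (adjusted p = 1.1e-05) and Agtr1b by 1.72 ± 0.18 (adjusted p = 2.01e-05). Against Cyp11b2-only cells the values were 0.07 (95% interval −0.12 to 0.26) for Agtr1a and −0.58 (−0.91 to −0.25) for Agtr1b, neither of which passed the adjustment (adjusted p = 0.935 and 0.236). Agtr1b passed with the Cyp11b2 cutoff at 200 CPM, at −1.36, and did not without likely doublets (−0.58, adjusted p = 0.419).

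Vsnl1, a neuronal calcium sensor protein, was at 577 and 573 CPM in co-expressing cells, at 813 and 969 in Cyp11b2-only cells, and at 252 and 171 in Cyp11b1-only cells. The 3 classes were apart in each library, with co-expressing cells in the middle. Vsnl1 was 1.43 ± 0.13 above Cyp11b1-only cells (adjusted p = 9.89e-06). Its value against Cyp11b2-only cells was −0.64 ± 0.13 (adjusted p = 0.0687), which passed under DESeq2 (−0.63, adjusted p = 0.0482) and in cells thinned to 5000 UMIs (−0.69, adjusted p = 4.77e-09).

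Dab2, an endocytic adaptor, was at 1924 and 2545 CPM in co-expressing cells, at 2008 and 2780 in Cyp11b2-only cells, and at 1140 and 1064 in Cyp11b1-only cells. Wnt4, a secreted signal of the outer cortex, was at 2581 and 1788 CPM in co-expressing cells, at 2613 and 1933 in Cyp11b2-only cells, and at 1908 and 1316 in Cyp11b1-only cells. Dab2 (0.99 ± 0.10, adjusted p = 1.35e-05) and Wnt4 (0.44 ± 0.05, adjusted p = 5.48e-05) were higher than in Cyp11b1-only cells. Their intervals against Cyp11b2-only cells ran from −0.30 to 0.10 and from −0.17 to 0.04. The potassium channel gene Kcnk9 (0.87), the G-protein regulator Rgs4 (0.99), the surface protein gene Cd24a (1.98), the calcium pump gene Atp2b3 (0.33), Lmo2 (0.86) and Bex4 (0.66) were also higher than in Cyp11b1-only cells. The gene lower was Mgarp, of a mitochondrial protein, at 2256 and 1712 CPM in co-expressing cells, 2264 and 1775 in Cyp11b2-only cells, and 2779 and 2304 in Cyp11b1-only cells (−0.36 ± 0.05, adjusted p = 3.46e-04). Shh, the hedgehog ligand of the outer cortex, was at 282 and 213 CPM in co-expressing cells, 261 and 217 in Cyp11b2-only cells, and 286 and 335 in Cyp11b1-only cells, and passed neither test (adjusted p = 0.918 and 0.179).

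Hsd3b6 and Hsd3b1 are paralogs that make progesterone from pregnenolone, and in the mouse Hsd3b6 is known from the zona glomerulosa. Hsd3b6 was at 345 and 420 CPM in co-expressing cells, at 285 and 248 in Cyp11b2-only cells, and at 275 and 144 in Cyp11b1-only cells. It was 0.79 ± 0.17 above Cyp11b1-only cells (adjusted p = 0.00883) and 0.43 (0.06 to 0.80, adjusted p = 0.613) from Cyp11b2-only cells. Hsd3b1 was at 4969 and 3183 CPM in co-expressing cells, at 4364 and 2739 in Cyp11b2-only cells, and at 5996 and 4775 in Cyp11b1-only cells. It was intermediate in each library, at −0.43 ± 0.07 from Cyp11b1-only cells (adjusted p = 8.88e-04) and 0.20 (0.06 to 0.35, adjusted p = 0.46) from Cyp11b2-only cells. Reads of these near-copies may be shared.

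Earlier steps of steroid synthesis differed in both directions. Of 13 genes, 4 were higher (Star, Hsd3b6, Fdx1 and Por) and 3 lower (Cyp11a1, Hsd3b1 and Cyp21a1) than in Cyp11b1-only cells, and 0 passed against Cyp11b2-only cells (4 at an unadjusted p under 0.05). Fdx1, the ferredoxin that passes electrons to mitochondrial P450 enzymes, was at 4555 and 4848 CPM in co-expressing cells, at 5889 and 5346 in Cyp11b2-only cells, and at 2077 and 1232 in Cyp11b1-only cells. That made it 1.53 ± 0.12 above Cyp11b1-only cells (adjusted p = 4.94e-06). Star, which brings cholesterol into mitochondria, was at 3294 and 3026 CPM in co-expressing cells, at 3487 and 3018 in Cyp11b2-only cells, and at 2701 and 2590 in Cyp11b1-only cells, a difference of 0.25 ± 0.05 from the last (adjusted p = 0.00456). Cyp11a1, the side-chain cleavage enzyme, was at 3591 and 3201 CPM in co-expressing cells, at 3384 and 3070 in Cyp11b2-only cells, and at 4075 and 3927 in Cyp11b1-only cells, −0.24 ± 0.05 from the last (adjusted p = 0.00557). Cyp21a1, the 21-hydroxylase, was −0.28 ± 0.07 from Cyp11b1-only cells (adjusted p = 0.0139).

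The zona fasciculata list was split, with 7 higher and 8 lower of 21 tested genes against Cyp11b1-only cells and 0 passing against Cyp11b2-only cells (3 unadjusted). Abcb1b, a multidrug transporter, was at 28.0 and 12.1 CPM in co-expressing cells, at 22.6 and 17.1 in Cyp11b2-only cells, and at 74.8 and 125 in Cyp11b1-only cells. Abca1, which exports cholesterol, was at 23.2 and 18.1 CPM in co-expressing cells, at 11.3 and 13.4 in Cyp11b2-only cells, and at 70.0 and 117 in Cyp11b1-only cells. Both were low in co-expressing cells of each library, −1.88 ± 0.28 (adjusted p = 5.15e-04) and −1.88 ± 0.18 (adjusted p = 1.48e-05) from Cyp11b1-only cells. Srd5a2 and Aldh1a7 had no UMI in co-expressing cells and were at 9.48 and 16.4 CPM and at 5.04 and 2.65 CPM in Cyp11b1-only cells. Akr1b7, an aldose reductase family gene known as ACTH-dependent in the mouse adrenal, was higher in co-expressing cells, at 1539 and 1327 CPM against 1100 and 1114 in Cyp11b1-only cells (0.36 ± 0.08, adjusted p = 0.0117). Cyp11b2-only cells had 1583 and 1140 CPM of Akr1b7, which was called higher there than in Cyp11b1-only cells too.

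The ACTH receptor Mc2r was at 375 and 308 CPM in co-expressing cells, at 350 and 283 in Cyp11b2-only cells, and at 416 and 327 in Cyp11b1-only cells, and passed neither test (adjusted p = 0.81 and 0.273). Its accessory protein gene Mrap was at 146 and 125 CPM in co-expressing cells, 152 and 121 in Cyp11b2-only cells, and 135 and 124 in Cyp11b1-only cells. Of 22 genes of ACTH, cAMP and protein kinase A signalling, 7 were higher and 0 lower than in Cyp11b1-only cells, and 0 passed against Cyp11b2-only cells (3 unadjusted). The 7 were the G-protein subunit gene Gnas (0.21), the adenylyl cyclase Adcy6 (0.87), the regulatory subunits Prkar1a (0.45) and Prkar2a (0.67), the transcription factors Crem (0.89) and Creb1, and the anchoring protein Akap1.

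Of 39 genes of angiotensin, potassium and calcium signalling, 12 were higher and 2 lower than in Cyp11b1-only cells. Beside those above, the higher ones included the potassium channel gene Kcnk2 (1.21), the calcium pump Atp2b1 (0.55), Camk2d (0.39) and Prkcd. Lower were the potassium channel gene Kcnk1 (−0.71 ± 0.15, adjusted p = 0.00604) and Rgs2 (−0.56 ± 0.08, adjusted p = 2.43e-04), which limits Gq signalling. Kcnk2, Atp2b1, Camk2d and Prkcd were also called higher, and Kcnk1 and Rgs2 lower, in Cyp11b2-only than in Cyp11b1-only cells. Between co-expressing and Cyp11b2-only cells 0 of the 39 genes passed (6 unadjusted). Of 27 WNT pathway genes, Wnt4, Dkk3, the R-spondin receptor Lgr4 (0.34) and the feedback inhibitor Nkd1 (0.73) were higher and Wnt5a (−1.05) lower than in Cyp11b1-only cells. Axin2, a WNT target, was at 123 and 93.7 CPM in co-expressing cells, 115 and 117 in Cyp11b2-only cells, and 105 and 87.8 in Cyp11b1-only cells (adjusted p = 0.986 and 0.255). Of 19 hedgehog and FGF genes, Fgfr1 (−0.66) and Spry1 (−0.74) were lower than in Cyp11b1-only cells, and 0 passed against Cyp11b2-only cells (2 unadjusted). Over all genes tested, 5.19% were higher and 3.46% lower than in Cyp11b1-only cells. The 1 of 27 WNT genes and 2 of 39 angiotensin, potassium and calcium genes called lower are near the second of these shares. The 2 of 19 hedgehog and FGF genes are a larger share that rests on 2 calls.

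Cholesterol synthesis was the list with the largest share called higher than in Cyp11b1-only cells among nuclear-encoded ones, at 15 of 26 tested genes with 0 lower and a median of 0.60. Against Cyp11b2-only cells 0 passed (11 unadjusted) and the median was −0.27. Idi1, which isomerises isopentenyl diphosphate, was at 95.9 and 106 CPM in co-expressing cells, at 108 and 154 in Cyp11b2-only cells, and at 37.2 and 39.9 in Cyp11b1-only cells. Cyp51, the lanosterol demethylase, was at 61.6 and 78.6 CPM in co-expressing cells, at 70.1 and 122 in Cyp11b2-only cells, and at 21.0 and 29.1 in Cyp11b1-only cells. Both stood nearer the Cyp11b2-only value, 1.40 ± 0.13 (adjusted p = 9.29e-06) and 1.54 ± 0.14 (adjusted p = 9.89e-06) above Cyp11b1-only cells. Sqle (1.18), Hsd17b7 (1.02), Srebf2 (0.98), Fdps (0.91), Hmgcs1 (0.58) and Insig1 (0.56) were among the others.

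Of 19 genes of cholesterol uptake, storage and efflux, 5 were higher and 2 lower than in Cyp11b1-only cells, and 0 passed against Cyp11b2-only cells (4 unadjusted). The 5 were also called higher in Cyp11b2-only than in Cyp11b1-only cells. The lysosomal lipase gene Lipa (0.88 ± 0.08, adjusted p = 1.18e-05), the sterol carrier Stard4 (1.02), the lysosomal exporter Npc1 (0.61), the HDL receptor Scarb1 (0.39) and the droplet protein gene Plin1 (0.34) were higher than in Cyp11b1-only cells. Abca1 was lower, as above. Apoe, also lower, was at 68.3 and 63.5 CPM in co-expressing cells, at 126 and 68.0 in Cyp11b2-only cells, and at 121 and 68.7 in Cyp11b1-only cells, so the difference was larger in library 1.

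**Figure D4:**
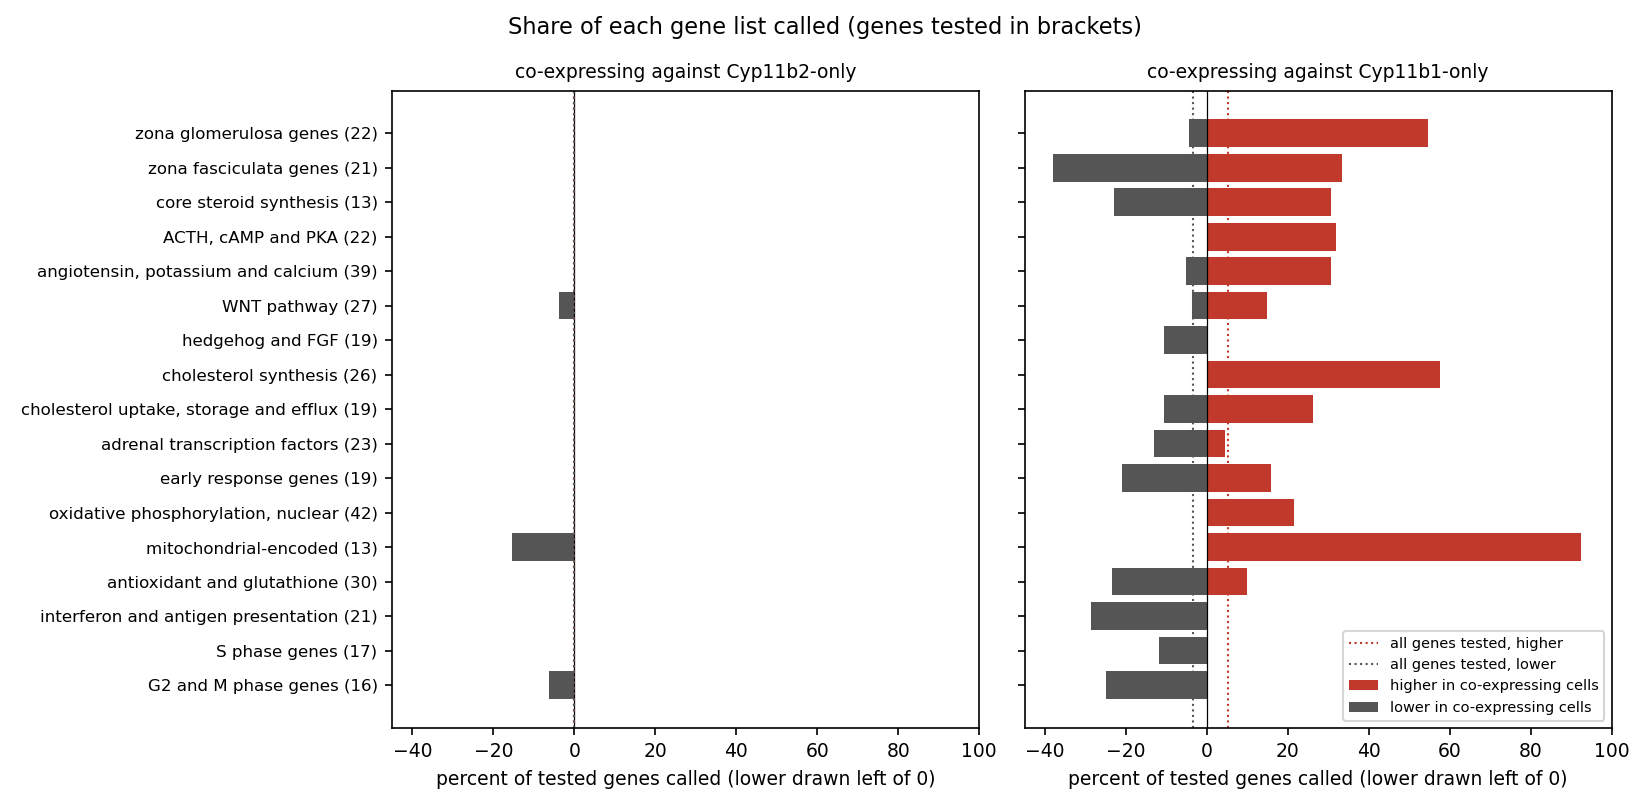
Share of the tested genes of each list called higher (red, right of 0) or lower (grey, left of 0) in co-expressing cells, against Cyp11b2-only (left panel) and Cyp11b1-only cells (right panel), for lists with at least 10 genes tested; dotted lines mark the shares over all 11457 genes. In the right panel mitochondrial-encoded (12 of 13), cholesterol synthesis (15 of 26) and zona glomerulosa genes (12 of 22) reach furthest to the right, and in the left panel 4 list genes were called, all lower.

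Mitochondrial-encoded genes were higher in 12 of 13 cases than in Cyp11b1-only cells, by 0.24 to 0.53, and 9 of 42 nuclear genes of oxidative phosphorylation were higher with 0 lower. Against Cyp11b2-only cells mt-Cytb, a subunit of complex III, and mt-Nd4l, of complex I, were lower. Levels of mt-Cytb were 6372 and 5247 CPM in co-expressing cells, 8142 and 7159 in Cyp11b2-only cells, and 4779 and 3322 in Cyp11b1-only cells. Levels of mt-Nd4l were 1310 and 753 CPM in co-expressing cells, 1572 and 1016 in Cyp11b2-only cells, and 913 and 537 in Cyp11b1-only cells. Both lay between the single-enzyme classes in each library, mt-Cytb at −0.40 ± 0.06 (adjusted p = 0.0193) and mt-Nd4l at −0.34 ± 0.06 (adjusted p = 0.0356) from Cyp11b2-only cells. The median mitochondrial share of a cell's UMIs moved alike, at 6.31% and 6.07% in co-expressing cells, 6.92% and 7.09% in Cyp11b2-only cells, and 5.29% and 4.28% in Cyp11b1-only cells. The part of that share in the result was not tested.

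Among the largest differences from Cyp11b1-only cells outside the lists, 6 genes were higher. They were the potassium channel gene Kcnq3 (1.82), the muscle enolase Eno3 (1.78), the actin-binding Tmsb4x (1.77), Scg5 (1.74), the calsyntenin Clstn3 (1.69) and Tmem158 (1.67). Scg5, a chaperone of prohormone convertase 2, was at 56.8 and 55.9 CPM in co-expressing cells, at 96.7 and 90.4 in Cyp11b2-only cells, and at 19.8 and 11.01 in Cyp11b1-only cells. Eno3 was at 217 and 153 CPM in co-expressing cells, at 366 and 332 in Cyp11b2-only cells, and at 78.0 and 27.0 in Cyp11b1-only cells. Scg5 and Eno3 were each in the middle of the 3 classes in both libraries. Their values against Cyp11b2-only cells were −0.79 ± 0.16 and −0.96 ± 0.21 (adjusted p = 0.0687 and 0.106).

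On the lower side, Mmd2 was at 3.32 and 0 CPM in co-expressing cells, at 0.647 and 0.584 in Cyp11b2-only cells, and at 37.5 and 53.5 in Cyp11b1-only cells, −3.94 ± 0.34 from the last (adjusted p = 5.93e-06). Acsbg1, an acyl-CoA synthetase, was at 11.8 and 10.6 CPM in co-expressing cells, at 3.81 and 3.70 in Cyp11b2-only cells, and at 54.1 and 96.9 in Cyp11b1-only cells. The homeobox factor Hhex was at 25.1 and 24.2 CPM in co-expressing cells, at 13.4 and 11.5 in Cyp11b2-only cells, and at 80.1 and 107 in Cyp11b1-only cells. Acsbg1 (−2.46 ± 0.22, adjusted p = 8.05e-06) and Hhex (−1.82 ± 0.17, adjusted p = 9.89e-06) were lower than in Cyp11b1-only cells. Both lay above the Cyp11b2-only level in each library, by 1.67 ± 0.35 and 0.98 ± 0.22, which did not pass (adjusted p = 0.0835 and 0.119). Tmem52 (−1.89) was lower as well.

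Of 23 transcription factors of the adrenal, 1 was higher, Zfpm2 (0.61), and 3 were lower than in Cyp11b1-only cells, among them Hhex and the circadian factor Dbp (−0.62). Over all genes tested, 5.19% were higher and 3.46% lower, and 1 of 23 is near the first of these shares. Against Cyp11b2-only cells 0 of the 23 passed (1 unadjusted). The lineage factor Nr5a1 was at 302 and 275 CPM in co-expressing cells, at 313 and 293 in Cyp11b2-only cells, and at 281 and 211 in Cyp11b1-only cells. Nr5a1 passed neither test (adjusted p = 0.895 and 0.14), and nor did Nr0b1 (adjusted p = 0.952 and 0.599). Of 19 early response genes, Klf2 (1.09), Klf4 (1.51) and Nr4a3 (0.63) were higher and Fosl2 (−1.55), Jun (−0.63), Jund (−0.26) and Ier3 (−0.97) lower than in Cyp11b1-only cells. All of them were called in the same direction in Cyp11b2-only against Cyp11b1-only cells. Between co-expressing and Cyp11b2-only cells 0 of the 19 passed (7 unadjusted). The rule had bounded Nr4a1 and Nr4a2, the relatives of Nr4a3.

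Of 30 antioxidant genes, Txn2 (0.64), Txnrd2 and Gsta4 (0.36) were higher, and Mt1 (−1.11), Mt2 (−1.54), Hmox1 (−1.27), Gstm1 (−0.98), Cat (−0.46), Prdx2 (−0.24) and Mgst1 (−0.42) were lower than in Cyp11b1-only cells. Cyp11b2-only cells differed from Cyp11b1-only cells in the same direction for all of these. Between co-expressing and Cyp11b2-only cells 0 of the 30 passed (7 unadjusted). Mt1, a metallothionein, was at 182 and 77.1 CPM in co-expressing cells, at 136 and 53.8 in Cyp11b2-only cells, and at 382 and 172 in Cyp11b1-only cells. Hmox1, which breaks down heme, was at 34.7 and 28.7 CPM in co-expressing cells, at 29.9 and 23.8 in Cyp11b2-only cells, and at 83.1 and 70.3 in Cyp11b1-only cells. Co-expressing cells were thus nearer to Cyp11b2-only cells for both. Of 21 interferon and antigen presentation genes, B2m (−0.67 ± 0.09, adjusted p = 1.57e-04), Ifitm3 (−0.56), H2-K1 (−0.39), H2-D1 (−0.36), Ifitm2 and Ifit3 were lower and 0 higher than in Cyp11b1-only cells. The same genes were called lower in Cyp11b2-only than in Cyp11b1-only cells. Between co-expressing and Cyp11b2-only cells 0 of the 21 passed (3 unadjusted). Leukocyte markers moved with this group, as follows.

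Markers of other cell types were low in co-expressing cells. The 17 leukocyte markers summed to 9.69 and 1.59 CPM in co-expressing cells, to 34.6 and 8.07 in Cyp11b2-only cells, and to 56.0 and 49.6 in Cyp11b1-only cells, with 10 and 1 of the markers detected in co-expressing cells and Ptprc, Cd3e, Cd79a and Ms4a1 at 0 in both libraries. Cd52, Lyz2, C1qb and Cd74 were called lower than in Cyp11b1-only cells. Erythroid markers summed to 2.42 and 0 CPM in co-expressing cells, 17.3 and 60.3 in Cyp11b2-only cells, and 692 and 7.93 in Cyp11b1-only cells, so the calls of Hba-a1 and Hba-a2 rest on Cyp11b1-only cells of library 1. Without cells holding at least 5 leukocyte or 5 erythroid UMIs, an alternative chosen after seeing the data, 577 genes were higher and 367 lower than in Cyp11b1-only cells, and 4 higher and 7 lower than in Cyp11b2-only cells. Of the calls, 562 and 357, and 3 and 7, were shared with those above.

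Endothelial markers summed to 7.96 and 7.96 CPM in co-expressing cells, 3.20 and 2.62 in Cyp11b2-only cells, and 18.8 and 21.0 in Cyp11b1-only cells, with Pecam1, Cdh5, Tie1, Tek, Emcn and Eng at 0 in co-expressing cells. Capsule and fibroblast markers summed to 153 and 148 CPM in co-expressing cells, 151 and 166 in Cyp11b2-only cells, and 143 and 146 in Cyp11b1-only cells. Nearly all of that was Nr2f2 and Rspo3, and Col1a1, Col1a2, Col3a1, Dcn, Lum, Pdgfra and Pdgfrb were at 0 in co-expressing cells. Medulla markers had 1 UMI per library in co-expressing cells, with Th, Dbh, Pnmt and Chga at 0. Of the X-zone genes, which mark the innermost layer of young mice, Akr1c18 and Pik3c2g were at 0 in co-expressing cells and in both other classes. Thrb, the remaining gene of that list, was at 7.61 and 12.7 CPM in co-expressing cells. It was at 10.3 and 9.28 CPM in Cyp11b2-only cells, and at 13.5 and 19.9 in Cyp11b1-only cells. The eGFP reporter was at 2999 and 3747 CPM in co-expressing cells, 3354 and 3957 in Cyp11b2-only cells, and 2236 and 2272 in Cyp11b1-only cells, and TdTomato had no UMI. Leukocytes also held eGFP, at 2392 and 3009 CPM, while Cre was at 3.73 and 0 CPM in leukocytes, against 45.7 and 78.0 in co-expressing cells. The source of the leukocyte eGFP was not tested.

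To place the co-expressing cells between the single-enzyme classes with genes not chosen on the same library, genes that differed by at least 2-fold between Cyp11b2-only and Cyp11b1-only cells in 1 library, with at least 50 CPM in the higher class, were read in the other library. Of genes chosen in library 1 and read in library 2, the 36 higher in Cyp11b2-only cells had a median difference (log2 of CPM plus 1) of −0.29 from Cyp11b2-only and 1.75 from Cyp11b1-only cells. The 34 higher in Cyp11b1-only cells had medians of 0.30 and −1.40. Of genes chosen in library 2 and read in library 1, the 93 higher in Cyp11b2-only cells had medians of −0.22 and 0.71, and the 77 higher in Cyp11b1-only cells 0.35 and −0.77. Co-expressing cells lay between the other classes for 30 of 36, 25 of 34, 82 of 93 and 73 of 77 of these genes, and nearer to Cyp11b2-only cells for 36, 27, 87 and 66. On this scale the co-expressing cells were close to the Cyp11b2-only side, displaced from it toward the Cyp11b1-only side in both directions and both libraries. Genes are not independent replicates, both libraries' classes were cut by the same rule, and these values carry no test.

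**Figure D5:**
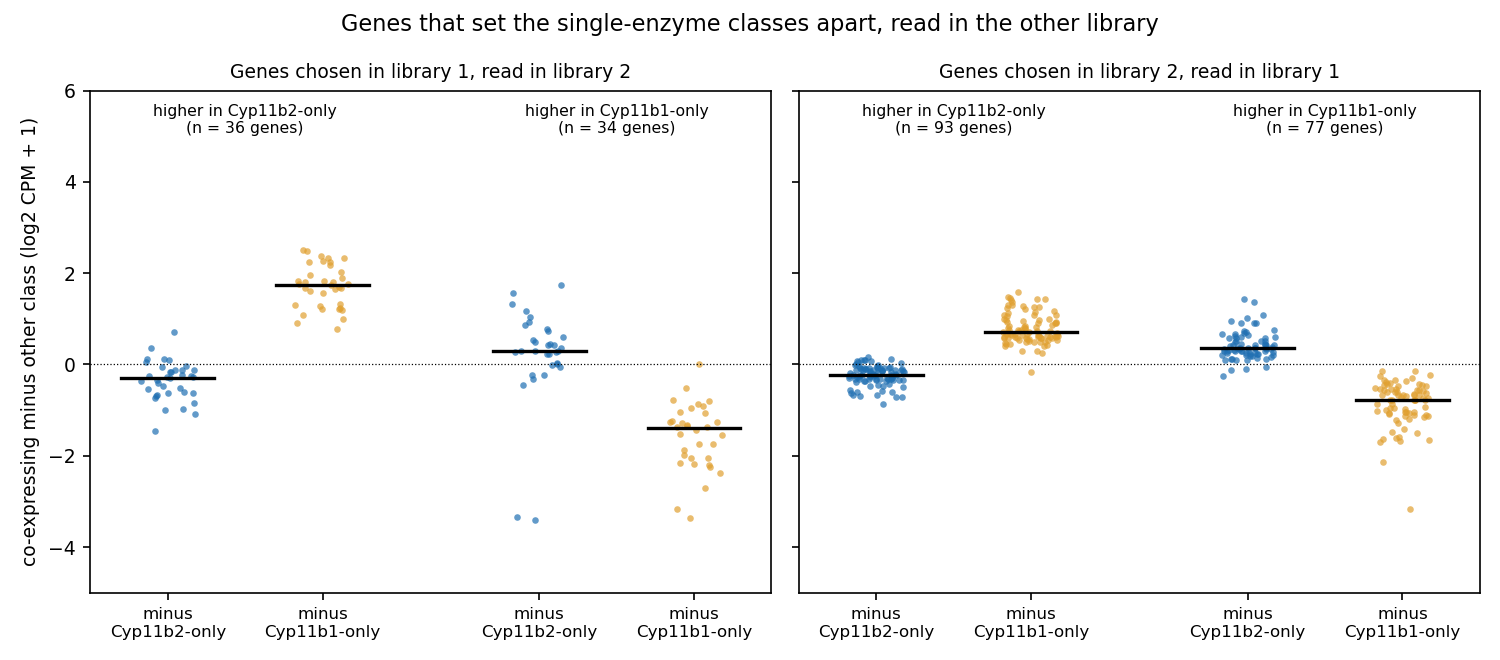
Difference of co-expressing cells from Cyp11b2-only (blue) and Cyp11b1-only cells (yellow) in log2 of CPM plus 1, 1 point per gene, with the median as a line, for genes chosen in 1 library and read in the other. Blue points lie near 0 (medians −0.29, 0.30, −0.22 and 0.35) and yellow points farther from it (1.75, −1.40, 0.71 and −0.77).

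Among the co-expressing cells themselves, those with more Cyp11b1 were compared as a description, since the rule used that gene. In library 1, with 44, 39 and 30 cells at 200 to 400, 400 to 800 and over 800 CPM of Cyp11b1, Vsnl1 was at 577, 533 and 497 CPM and Hsd3b6 at 353, 329 and 271 CPM. Hsd3b1 was at 4375, 4289 and 5618 CPM, Akr1b7 at 1270, 1356 and 1831 CPM and Cyp21a1 at 5133, 5229 and 6019 CPM. In library 2 the bins held 10, 15 and 10 cells, and Vsnl1 was at 635, 701 and 453 CPM, Hsd3b6 at 233, 536 and 529 CPM and Hsd3b1 at 3240, 2947 and 3966 CPM. Akr1b7 was at 715, 1855 and 1492 CPM and Cyp21a1 at 3881, 4254 and 5717 CPM there. Of 19 zone and steroid genes looked at, 4 were highest (Hsd3b1, Cyp21a1, Cyp11a1 and Mrap) and 4 lowest (Vsnl1, Kcnk9, Lmo2 and Shh) in both libraries in the cells with the most Cyp11b1. The other 11 were neither highest nor lowest there in both libraries. With so few bins, some genes would fall at the same end in both libraries by order alone, and how many was not tested. Some steps were small, as for Kcnk9 in library 1 (444, 441 and 420 CPM). Agtr1a, a glomerulosa gene, was highest there in library 1 (609, 650 and 772 CPM), where Abcb1b, a fasciculata gene, was lowest (29.3, 30.9 and 15.1 CPM). Mc2r was highest there in library 1 and lowest in library 2, and Star the reverse. Bins of under 20 cells carry little weight.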

How the data were processed

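The authors deposited raw UMI counts for each gene in each barcode, produced with Cell Ranger and build mm10, per the submitters' processing notes. The software version was 3.1.0, per the file headers, and the settings of cell calling are not given in the sources used here. No counts were normalised before deposit as far as whole numbers and unequal totals show.

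Cells were filtered and classed as the report states, in Python 3.11.15 with scanpy 1.11.5 (scrublet per library, 0.8% per 1000 barcodes). Leukocytes were cells with at least 5 UMIs of 17 marker genes and Star under 1000 CPM. Free RNA was not subtracted. UMIs were summed per class and library (6 sums) and fitted in edgeR 4.0.16 (R 4.3.3, limma 3.58.1) with TMM scaling, its low-count filter and terms for class and library. Standard errors came from the log2 change and the F statistic. DESeq2 1.42.0 was an alternative. The code was checked on simulated data.

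The classes of a library share its cells' preparation, so the library was the replicate block. Over 6357 genes the library differences of 2 classes correlated at 0.716 (co-expressing and Cyp11b2-only), 0.666 (co-expressing and Cyp11b1-only) and 0.859 (the single-enzyme classes).

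Named genes were the 8 largest called changes per direction and comparison (20 CPM or more, with the libraries of like sign), genes called against both classes, up to 2 per list and direction, and 17 genes by name. Other list members, mt-Cytb, mt-Nd4l, Mki67 and the genes of low level were named after their values were seen. The members and the 23 lists were chosen with earlier results of these data known. Sequences and coordinates came from the mm10 genome with GENCODE vM21. Some genes of the lists are counted but not reported by name here.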

Additional observations from a re-analysis of the deposited data

How the results depend on the processing

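Against Cyp11b2-only cells, where 3 genes were higher and 7 lower, the counts were 41 and 121 with no low-count filter, 0 and 0 with no replicate block, 11 and 18 with cells passing neither cutoff as another class, 23 and 31 among cells of 10000 to 30000 UMIs, 16 and 33 with the Cyp11b2 cutoff at 200 CPM (sharing 3 of the 3 and 4 of the 7), 5 and 14 with at least 1500 genes, and 0 and 0 without the top 20% of doublet scores. Thinning to 5000 UMIs gave 1 and 10 (sharing 1 and 2), and the Cyp11b1 cutoff at 400 CPM 4 and 5 (sharing 3 and 1). Without likely doublets they were 3 and 5. Against Cyp11b1-only cells, where 595 were higher and 396 lower, they were 327 and 141 in DESeq2, 0 and 0 with no replicate block, 287 and 149 in thinned cells and 352 and 197 with the Cyp11b2 cutoff at 200 CPM, and 640 were lower with no low-count filter. Without likely doublets they were 581 and 377. Between Cyp11b2-only and Cyp11b1-only cells, where 1526 were higher and 1333 lower, they were 702 and 418 in DESeq2, 86 and 106 with no replicate block and 1009 and 709 in thinned cells. Fewer cells or UMIs entered under the stricter cutoffs and the thinning. With the Cyp11b2 cutoff at 200 CPM, 34 and 17 co-expressing cells were left, while calls against Cyp11b2-only cells rose to 16 and 33. What moved the counts was not tested. The share of co-expressing cells in library 1 fell to 1.41% with the Cyp11b1 cutoff at 400 CPM and to 0.695% with the Cyp11b2 cutoff at 200 CPM, and in library 2 to 0.845% with the Cyp11b2 cutoff at 200 CPM, by construction. Signs turned for values that had not passed the test. Against Cyp11b2-only cells these were Abcb1b at −0.0186 in thinned cells, Cyp21a1 at 0.0032 with RLE size factors, 0.0022 in DESeq2, 0.062 with the Cyp11b1 cutoff at 400 CPM and 0.0044 without cells of leukocyte or erythroid UMIs. Mrap was at 0.0022 with no replicate block, 0.0303 at 10000 to 30000 UMIs, 0.14 with the Cyp11b1 cutoff at 400 CPM and 0.025 without the top 20% of scores, and Nr0b1 at −0.0774 at 10000 to 30000 UMIs. Against Cyp11b1-only cells Mrap was at −0.22 in thinned cells and −0.0847 with the Cyp11b2 cutoff at 200 CPM, and Nr0b1 at 0.0362 with the Cyp11b1 cutoff at 400 CPM. For named genes, 314 of the values under alternatives with a test against Cyp11b2-only cells and 863 against Cyp11b1-only cells kept direction and side of the threshold, and 43 and 137 lost their call. With 1 library left out there was no residual degree of freedom, so no calls could be made. The co-expressing sums held the fewest cells, 113 and 35.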
